A study of Mus musculus with 6 samples.

Results

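The dermal papilla is a small cluster of specialised mesenchymal cells enclosed by the base of each hair follicle. It sends signals to the overlying epithelium, among them R-spondins, FGFs and BMP antagonists, which start and sustain the growth phase of the hair cycle. Its cells are recognised by a set of signature genes, and 9 of these are described here, namely *Corin*, *Rspo2*, *Rspo3*, *Prom1*, *Alx4*, *Trps1*, *Vcan*, *Sox18* and *Alpl*. The members were found by matching the Ensembl identifiers of the count table to these gene names in GENCODE release M21 on GRCm38. All 9 were among the 26579 genes of the table, and all 9 were among the 15102 that passed the low-count filter, a level of 1 or more CPM (counts scaled to a common library size) in 3 or more libraries.

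The counts came from RNA-Seq of dorsal neck skin taken as whole punch biopsies. The groups were 3 YAP2-5SA-∆C transgenic female mice and 3 wild type female littermates, all at 33 days of age (P33). The transgene encodes a mildly activated mutant of Yes-associated protein (YAP), a transcriptional coactivator of the TEAD factors, and it is expressed in basal keratinocytes of the epidermis, so that the dermal papilla is not the named site of its expression. The YAP2-5SA-∆C mice were sampled at the early onset of the visible skin abnormalities. In such bulk samples, fewer cells of a type and less RNA per cell cannot be told apart.

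Total counts per library lay between 11225705 and 19505036, with wild type replicate 3 the shallowest. In that library, 5.27% of the counts fell on 1 unnamed gene (ENSMUSG00000045999), against at most 0.288% in the others. The endogenous *Yap1* gene had 131 ± 9.47 CPM (SD, n = 3) in wild type against 136 ± 7.32 CPM (SD, n = 3) in transgenic skin, and it is not known if transgene reads count towards it. The defining markers of skin were abundant in all 6 libraries, with *Krt5* at 713 CPM or more and *Col1a1* at 1722 CPM or more. Summed skeletal muscle markers differed widely between biopsies of the same genotype. They were at 1330, 6486 and 5308 CPM in wild type replicates 1, 2 and 3 and at 3293, 2107 and 1275 CPM in YAP2-5SA-∆C replicates 1, 2 and 3. YAP2-5SA-∆C replicate 2 stood apart from the other libraries in the hair keratins given below.

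*Trps1* fell in YAP2-5SA-∆C skin and was the 1 member of 9 that passed the test. *Corin* and *Rspo2* were also lower in each YAP2-5SA-∆C library than in each wild type library, with nearly 2-fold lower means, but did not pass the threshold. *Sox18* had a higher mean in YAP2-5SA-∆C skin and overlapping groups, and *Rspo3*, *Alx4*, *Prom1*, *Alpl* and *Vcan* had log2 fold changes (log2FC, YAP2-5SA-∆C over wild type) between -0.11 and 0.23. By the quasi-likelihood method of edgeR, 1.91% of all tested genes reached a false discovery rate (FDR) under 0.05, with 0.464% lower and 1.44% higher in YAP2-5SA-∆C skin. This split, 218 higher and 70 lower genes, depended on the analysis, with 833 higher and 735 lower by the likelihood-ratio test and 408 higher and 409 lower without YAP2-5SA-∆C replicate 2. With voom, which also called *Trps1* alone among the members, it was 1.65%. The genotypes did not overlap in 3 members that were lower and 1 that was higher, whereas 18.2% of all tested genes were lower without overlap and 15.5% higher without overlap. The median log2FC was 0.09 over the members and -0.01 over all tested genes.

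**Figure D1:**
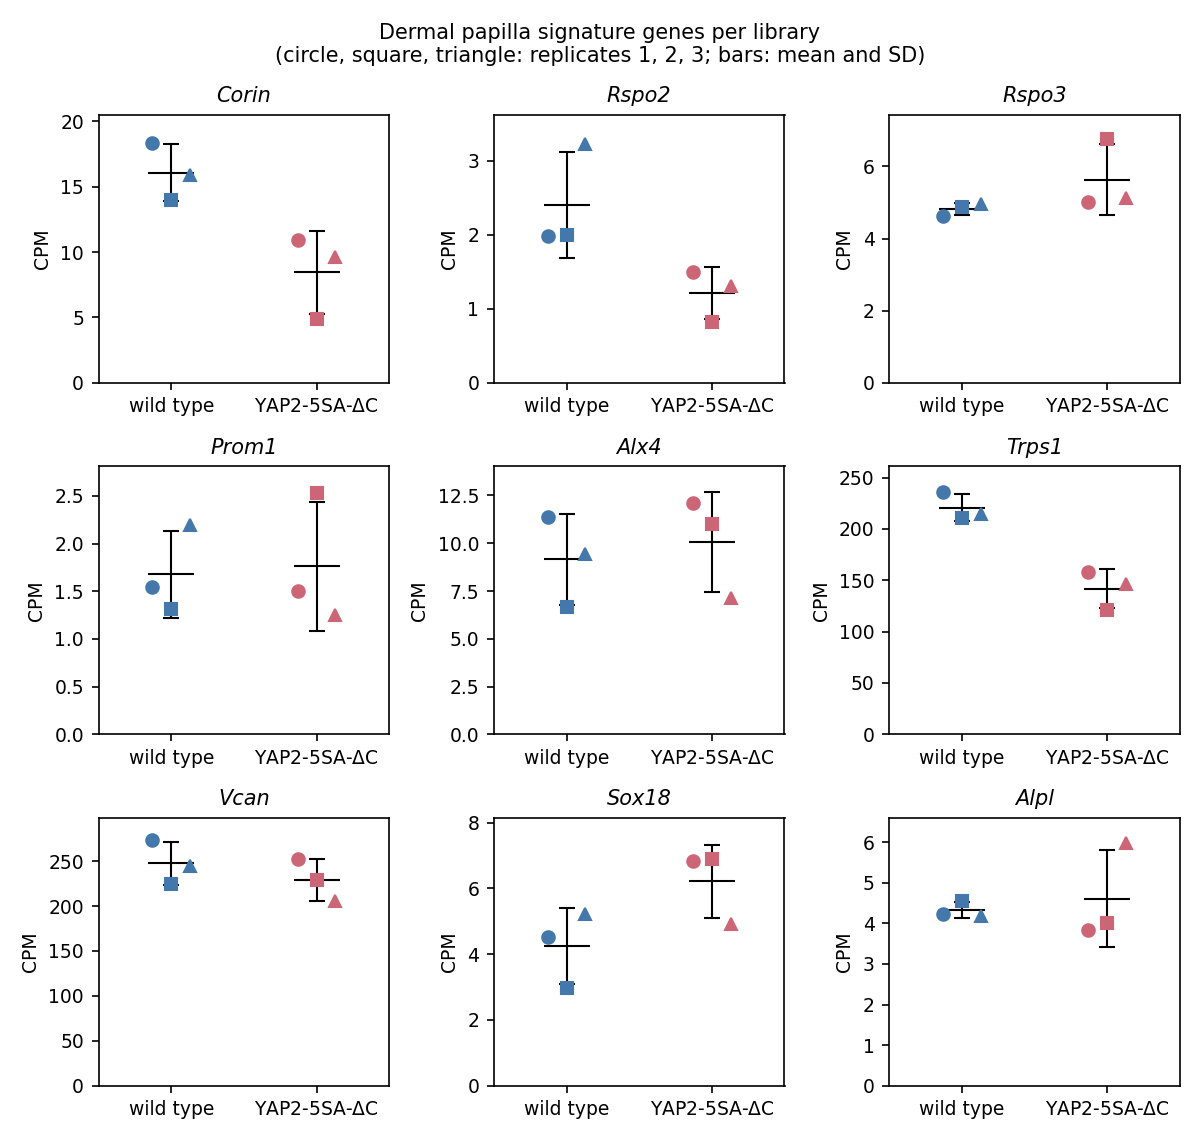
CPM of the 9 dermal papilla signature genes in each of the 6 libraries, with wild type in blue, YAP2-5SA-∆C in red, and the mean and SD of 3 mice as bars. The YAP2-5SA-∆C points of *Corin*, *Rspo2* and *Trps1* lie below all wild type points, and replicate 2 (square) is the lowest in each of these panels.

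*Trps1* (ENSMUSG00000038679, chromosome 15 of GRCm38 from 50654752 to 50890463, minus strand) encodes a GATA-type zinc finger repressor of transcription that is mutated in tricho-rhino-phalangeal syndrome, a disorder with sparse hair. It had 236, 211 and 215 CPM in wild type replicates 1, 2 and 3 and 158, 121 and 146 CPM in YAP2-5SA-∆C replicates 1, 2 and 3. The lowest wild type library was thus well above the highest YAP2-5SA-∆C library. The log2FC was -0.64 (SE 0.11, 95% interval -0.89 to -0.39), with an edgeR FDR of 0.0436. This value lay close to the threshold. With scaling to fibroblast markers, a log2FC of -0.84 had an edgeR FDR of 0.0646, and without YAP2-5SA-∆C replicate 2 the fall was smaller at -0.52 and the FDR was 0.0154. The call was lost without any of the other 5 libraries, where the log2FC stayed between -0.71 and -0.58 and edgeR's FDR was 0.0742, 0.178 and 0.143 on leaving out wild type replicates 1, 2 and 3, and 0.0606 and 0.0906 on leaving out YAP2-5SA-∆C replicates 1 and 3. *Trps1* is one of the most abundant members and its counts, 2052 to 4294 per library, carry a counting error of at most 2.21%.

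*Corin* (ENSMUSG00000005220, chromosome 5 from 72300025 to 72504473, minus strand) encodes a membrane serine protease that cleaves the precursor of atrial natriuretic peptide, and in the dermal papilla it limits the agouti signal for yellow pigment. It had 18.3, 14.0 and 15.9 CPM in the wild type libraries and 10.9, 4.88 and 9.61 CPM in the YAP2-5SA-∆C libraries. Each YAP2-5SA-∆C library was below each wild type library, and replicate 2 was by far the lowest. The log2FC was -0.92 (SE 0.28, 95% interval -1.58 to -0.26), or 1.90-fold, with an unadjusted p-value of 0.0130 and an edgeR FDR of 0.1. The spread in YAP2-5SA-∆C skin was wide, with a coefficient of variation of 37.4% against 13.2% in wild type. Without YAP2-5SA-∆C replicate 2, the log2FC of *Corin* was smaller at -0.63 (SE 0.14) and its edgeR FDR was 0.0488. Without wild type replicate 3, the library in which 1 gene took up many counts, the log2FC was -0.92 with an edgeR FDR of 0.233. The likelihood-ratio test of edgeR, which the methods of the study list, gave *Corin* an FDR of 0.00510, in a test that called 10.4% of all genes. DESeq2, which called 10.5% of all genes, gave 0.0120. With voom the FDR of *Corin* was 0.0861, above the threshold.

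*Rspo2* (ENSMUSG00000051920, chromosome 15 from 43020794 to 43170826, minus strand) and *Rspo3* (ENSMUSG00000019880, chromosome 10 from 29452416 to 29535867, minus strand) encode R-spondins, secreted ligands of LGR4, LGR5 and LGR6 that raise Wnt signalling by removing the ubiquitin ligases RNF43 and ZNRF3 from the cell surface. *Rspo2* had 1.98, 1.99 and 3.23 CPM in wild type against 1.5, 0.824 and 1.31 CPM in YAP2-5SA-∆C skin. The groups did not overlap, but these values rest on 14 to 38 counts per library, so that counting alone gives an error of 26.7% at the lowest of them. The log2FC of *Rspo2* was -0.95 (SE 0.31, 95% interval -1.67 to -0.22), with an unadjusted p-value of 0.0174 and an edgeR FDR of 0.114. It was -0.70 both without YAP2-5SA-∆C replicate 2 and without wild type replicate 3. The likelihood-ratio test of edgeR, which called 10.4% of all genes, called *Rspo2* with an FDR of 0.0177. It was not called by voom (FDR 0.124) or DESeq2 (adjusted p-value 0.143).

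*Rspo3* did not follow *Rspo2*. It had 4.62, 4.87 and 4.95 CPM in wild type against 5.01, 6.77 and 5.12 CPM in YAP2-5SA-∆C skin. The YAP2-5SA-∆C libraries were all above the wild type libraries, by a narrow margin except in replicate 2. The log2FC was 0.23 (SE 0.15, 95% interval -0.13 to 0.59), with an edgeR FDR of 0.378, and it was 0.09 without replicate 2 and 0.01 with scaling to fibroblast markers. Since both genes were counted in the same libraries, their ratio does not depend on any scaling. There were 42.9, 40.9 and 65.4 *Rspo2* counts per 100 *Rspo3* counts in the wild type libraries and 30.0, 12.2 and 25.6 in the YAP2-5SA-∆C libraries. The ratio was below all wild type values in each YAP2-5SA-∆C mouse, with a log2 difference of -1.20. This pair and the ratios to *Vcan* given next were chosen after the separation of these genes had been seen, so they are descriptions and no test applies.

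*Vcan* (ENSMUSG00000021614, chromosome 13 from 89655312 to 89742509, minus strand) encodes versican, a large chondroitin sulfate proteoglycan of the papilla matrix that is also made elsewhere in the dermis. It had 273, 225 and 245 CPM in wild type against 252, 229 and 206 CPM in YAP2-5SA-∆C skin, and the groups overlapped. The log2FC was -0.11 (SE 0.10, 95% interval -0.35 to 0.12), with an edgeR FDR of 0.506. It was -0.32 with scaling to fibroblast markers (edgeR FDR 0.0903), which moved all genes, and -0.03 or -0.18 when replicate 1 or 2 of the wild type mice was left out. It was -0.04 without YAP2-5SA-∆C replicate 3. The 95% interval of the main analysis includes no change and also a fall as large as its lower bound of -0.35. The counts of the lower members were also expressed relative to *Vcan*. There were 6.68, 6.23 and 6.48 *Corin* counts per 100 *Vcan* counts in wild type and 4.32, 2.13 and 4.67 in YAP2-5SA-∆C skin. There were 86.3, 93.8 and 87.7 *Trps1* counts per 100 *Vcan* counts in wild type and 62.8, 52.6 and 71.0 in YAP2-5SA-∆C skin. For *Rspo2* the values were 0.724, 0.883 and 1.32 against 0.596, 0.359 and 0.637. The choice of genes that did and did not separate fixes the direction of these 3 ratios.

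*Sox18* (ENSMUSG00000046470, chromosome 2 from 181669836 to 181671640, minus strand) encodes an SRY-related transcription factor of papilla cells in early hair follicles that is better known from blood and lymphatic vessels. It had 4.51, 2.98 and 5.23 CPM in wild type against 6.84, 6.88 and 4.93 CPM in YAP2-5SA-∆C skin. YAP2-5SA-∆C replicate 3 fell within the wild type range. The log2FC was 0.57 (SE 0.24, 95% interval 0.01 to 1.13), with an unadjusted p-value of 0.0465 and an edgeR FDR of 0.183. It was 0.36 without wild type replicate 2, the lowest library. The summed endothelial markers were also at higher levels. The sum over 8 of 8 markers was 138 to 153 CPM in wild type against 160 to 188 CPM in YAP2-5SA-∆C skin, and the sum over 5 of 5 lymphatic markers was 61.5 to 69.9 CPM and 78.4 to 90.5 CPM. No marker of either list was at 0, and 0 of these 13 genes passed the FDR threshold in edgeR, where 5 had an unadjusted p-value under 0.05, as did 26.3% of all tested genes. *Lyve1* was the other way, at 14.7 ± 2.14 against 12.7 ± 0.509 CPM (SD, n = 3 each), and the lymphatic sum differed mostly through *Pdpn*, at 27.7 ± 3.18 against 37.7 ± 2.55 CPM, and *Ccl21a*, at 12.3 ± 1.70 against 17.7 ± 3.33 CPM. The part of vessels in the *Sox18* values was not tested.

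*Alx4* (ENSMUSG00000040310, chromosome 2 from 93642384 to 93681339, plus strand) encodes a paired-type homeodomain transcription factor. It had 11.4, 6.65 and 9.42 CPM in wild type against 12.1, 11 and 7.11 CPM in YAP2-5SA-∆C skin. The spread within each genotype was larger than the difference between the means, with a log2FC of 0.14 (95% interval -0.47 to 0.74) and an edgeR FDR of 0.763. *Prom1* (ENSMUSG00000029086, chromosome 5 from 43993620 to 44102032, minus strand) encodes prominin-1, a membrane glycoprotein known as CD133 that is used to isolate papilla cells. It had 1.54, 1.31 and 2.19 CPM in wild type against 1.5, 2.53 and 1.25 CPM in YAP2-5SA-∆C skin, with a log2FC of 0.11 (95% interval -0.67 to 0.88) and an edgeR FDR of 0.863. It had 20 to 43 counts per library and the widest 95% interval of the members. *Alpl* (ENSMUSG00000028766, chromosome 4 from 137741733 to 137796384, minus strand) encodes tissue-nonspecific alkaline phosphatase, whose enzyme activity is a classical stain of the dermal papilla. It had 4.23, 4.55 and 4.19 CPM in wild type against 3.84, 4 and 5.99 CPM in YAP2-5SA-∆C skin, with a log2FC of 0.09 (95% interval -0.37 to 0.55) and an edgeR FDR of 0.806. On leaving out 1 library, the sign turned for *Alpl* without YAP2-5SA-∆C replicate 3 (-0.14), for *Alx4* without wild type replicate 2 (-0.05), and for *Prom1* without replicate 2 of either genotype (-0.05 without that of wild type, -0.22 without that of YAP2-5SA-∆C).

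**Figure D2:**
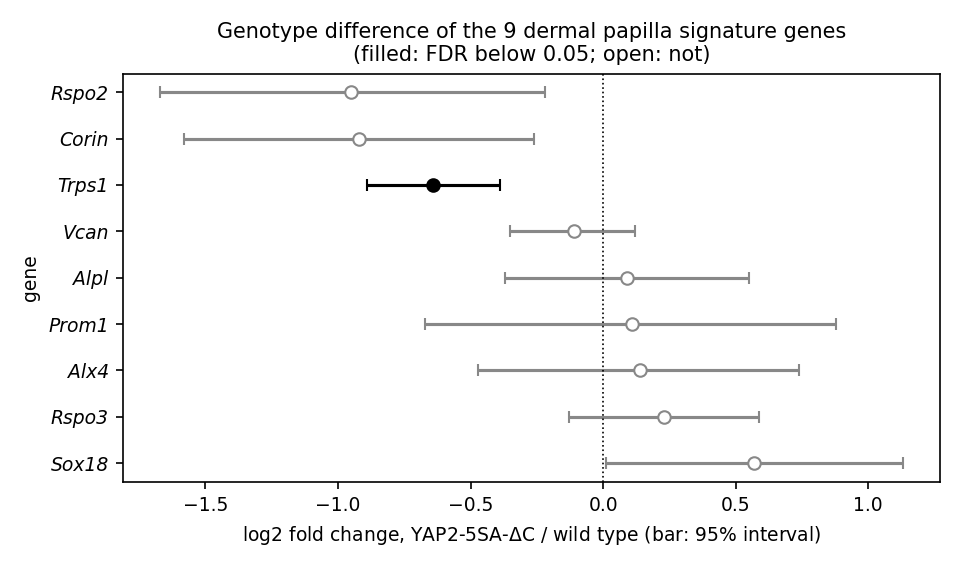
Log2 fold change of YAP2-5SA-∆C over wild type for the 9 members, with 95% intervals of the edgeR fit as bars, and the 1 gene with an FDR below 0.05 filled. *Trps1*, *Corin* and *Rspo2* have intervals wholly below 0, and of the others the interval of *Sox18*, from 0.01 to 1.13, does not include 0.

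The levels of the members were also compared per length, as CPM per kilobase of merged exons. In wild type skin, *Vcan* at 17.1 ± 1.67 and *Trps1* at 16.5 ± 1.00 CPM per kilobase (SD, n = 3 each) were far above the rest and overlapped with each other. They were followed by *Corin* at 2.98 ± 0.399 and *Sox18* at 2.62 ± 0.709 CPM per kilobase, which overlapped. *Rspo3* at 1.56 ± 0.0557, *Alx4* at 1.30 ± 0.338 and *Alpl* at 1.07 ± 0.0489 CPM per kilobase formed the next group, in which neighbours overlapped. *Rspo2* at 0.469 ± 0.141 and *Prom1* at 0.234 ± 0.0636 CPM per kilobase were lowest, without overlap. In YAP2-5SA-∆C skin the order was altered. *Trps1* at 10.6 ± 1.41 CPM per kilobase no longer overlapped with *Vcan* at 15.8 ± 1.59, *Corin* at 1.57 ± 0.587 stood below *Sox18* at 3.84 ± 0.688 and beside *Rspo3* at 1.82 ± 0.319, and *Rspo2* at 0.237 ± 0.0682 overlapped with *Prom1* at 0.245 ± 0.0946.

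YAP2-5SA-∆C replicate 2 was the lowest of the 6 libraries for *Corin*, *Rspo2* and *Trps1* and the highest for *Rspo3*, *Prom1* and *Sox18*. Over all tested genes it was the lowest library in 26.8% and the highest in 26.1%. The hair matrix, inner root sheath and shaft markers were lower along with *Corin*, *Rspo2* and *Trps1*: 11 of 12 were tested, all 11 were lower in YAP2-5SA-∆C skin without overlap, and none was at 0. Their summed level was 13656, 17264 and 16161 CPM in wild type against 7224, 1473 and 9098 CPM in YAP2-5SA-∆C skin, again lowest in replicate 2. None of these 11 genes passed the FDR threshold in edgeR (lowest FDR 0.106), and 10 had an unadjusted p-value under 0.05. Of all tested genes, 18.2% were lower without overlap, and 13% were lower with such a p-value. Summed melanocyte markers, 6 of 6 tested and none at 0, were at 437 to 512 CPM in wild type against 175 to 291 CPM in YAP2-5SA-∆C skin, with 2 of the 6 called lower, as were 0.464% of all tested genes. The dermal sheath and smooth muscle genes *Acta2* and *Tagln* were lower without overlap, at 126 ± 13.9 against 95.5 ± 13 CPM and at 50.6 ± 7.64 against 33.4 ± 5.95 CPM (SD, n = 3 each), while *Myh11* of the same list was higher without overlap and its other 3 genes overlapped. None of these 6 was called in edgeR, with FDRs of 0.0982 for *Acta2* and 0.0769 for *Tagln* and an unadjusted p-value under 0.05 for 3 of the 6. Other lists had summed levels that were higher without overlap. The sum of 6 macrophage markers was 334 to 401 against 482 to 529 CPM, with 2 called. That of 6 basal keratinocyte markers was 3399 to 4122 against 5618 to 7170 CPM, with *Krt14* called. Of these 6, *Krt15*, *Itgb4* and *Trp63* overlapped between the genotypes. The sum of 6 sebaceous gland markers was 2612 to 3323 against 3741 to 5547 CPM, with 0 called in edgeR and 4 with an unadjusted p-value under 0.05. Over all tested genes, 1.44% were called higher and 26.3% had such a p-value in either direction. The sebaceous sum was almost wholly *Scd1*, at 2776 ± 322 CPM in wild type against 4571 ± 971 CPM (SD, n = 3 each), and *Mc5r* of that list had a log2FC of -0.24. The part of these lists in the values of *Corin*, *Rspo2* and *Trps1* was not tested. The summed level of 10 of 10 fibroblast markers, none at 0, was 9803 to 13153 CPM in wild type against 12627 to 16362 CPM in YAP2-5SA-∆C skin. The sums overlapped, but 9 of the 10 markers had a fold above 1 and 1 had a fold below 1. Of the 10, 5 were higher without overlap, as were 15.5% of all tested genes. None was called in edgeR, and 4 higher ones had an unadjusted p-value under 0.05. With scaling to these fibroblast markers, which moved the median log2FC of all genes to -0.22, *Corin* was at -1.11 and *Rspo2* at -1.15, with FDRs of 0.0689 and 0.0753 in edgeR.

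**Figure D3:**
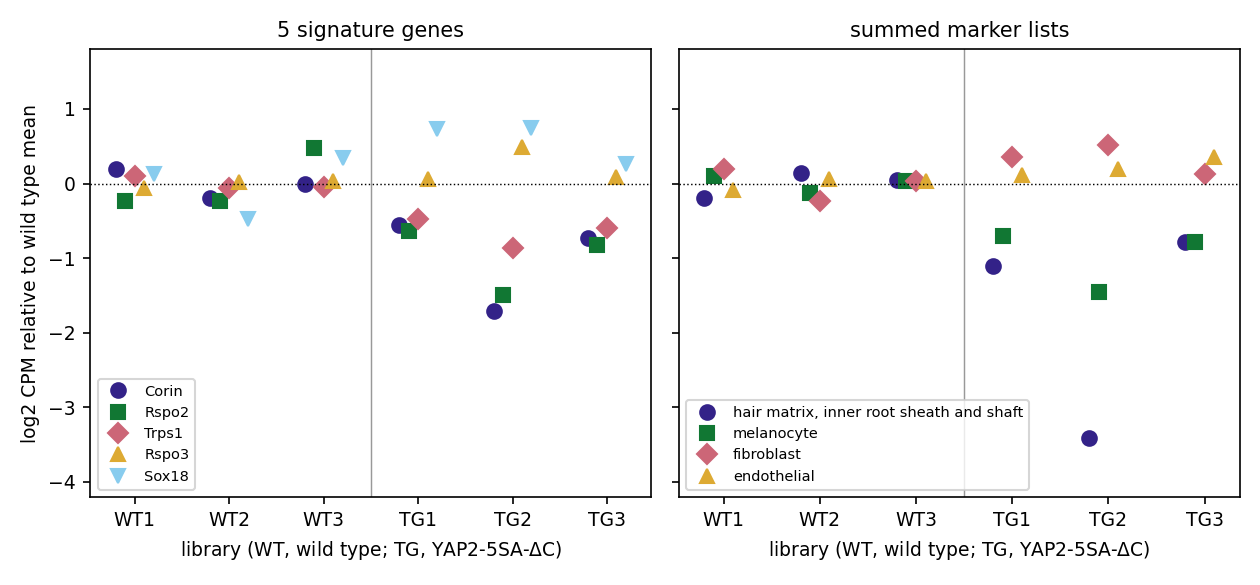
Log2 CPM relative to the wild type mean in each library, for 5 members (left) and for the summed levels of 4 marker lists (right). *Corin*, *Rspo2* and *Trps1* are lowest in YAP2-5SA-∆C replicate 2, at -1.71, -1.5 and -0.87, where the summed hair matrix and shaft markers are at -3.41.

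The members with the largest spread over the 6 libraries were *Corin*, *Rspo2* and *Sox18*, with SDs of 0.67, 0.62 and 0.44 on the log2 CPM scale. The profile of each was compared with all tested genes by the root mean square difference of centred log2 CPM over the 6 libraries. The genes most like *Corin* were *Slc39a10*, *Tyr* and *Hunk*, at 0.08, 0.08 and 0.09, against a median of 0.63 over all genes. *Slc39a10* encodes a zinc transporter, *Tyr* the tyrosinase of pigment cells and *Hunk* a protein kinase. Those most like *Rspo2* included *Gm15368* and *6330403K07Rik*, at 0.12 and 0.14, against a median of 0.58, and those most like *Sox18* were *Batf*, *Gm10600* and *A830012C17Rik*, at 0.08, 0.09 and 0.12, against 0.42. Between the members, *Corin* and *Rspo2* differed by 0.28, *Corin* and *Trps1* by 0.30 and *Rspo2* and *Trps1* by 0.31, whereas *Corin* and *Sox18* differed by 0.91. Other pairs were as close or closer, with 0.25 for *Rspo3* and *Vcan* and for *Alx4* and *Vcan*, 0.27 for *Rspo3* and *Prom1* and for *Alx4* and *Sox18*, 0.29 for *Rspo3* and *Alpl*, 0.30 for *Trps1* and *Vcan* and 0.31 for *Vcan* and *Alpl*. These distances share the genotype difference and replicate 2, and are given as a description.

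Of 19 further dermal papilla genes, 18 passed the low-count filter and 0 passed the FDR threshold in edgeR, where 2 higher and 7 lower ones had an unadjusted p-value under 0.05, as did 26.3% of all tested genes. Their median log2FC was -0.19. *Sox2*, a transcription factor of the papillae of some hair types, had 4 to 10 counts per library and was not tested. *Bmp6*, a BMP ligand, had 5.22, 5.34 and 5.90 CPM in wild type against 3.45, 2.35 and 2.93 CPM in YAP2-5SA-∆C skin. Its log2FC was -0.91 ± 0.17 (SE; edgeR FDR 0.0504). *Fgf10*, a growth factor for the follicle epithelium, had 8.52, 7.38 and 7.71 CPM against 4.84, 5.77 and 6.05 CPM. Its log2FC was -0.50 ± 0.13 (SE; edgeR FDR 0.0736). Both were lower in each YAP2-5SA-∆C library. *Crabp1*, which binds retinoic acid in the cytosol, was the reverse, with 7.20, 5.23 and 6.18 CPM against 10.9, 10.5 and 8.36 CPM. Its log2FC was 0.68 ± 0.16 (SE; edgeR FDR 0.0655).

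**Figure D4:**
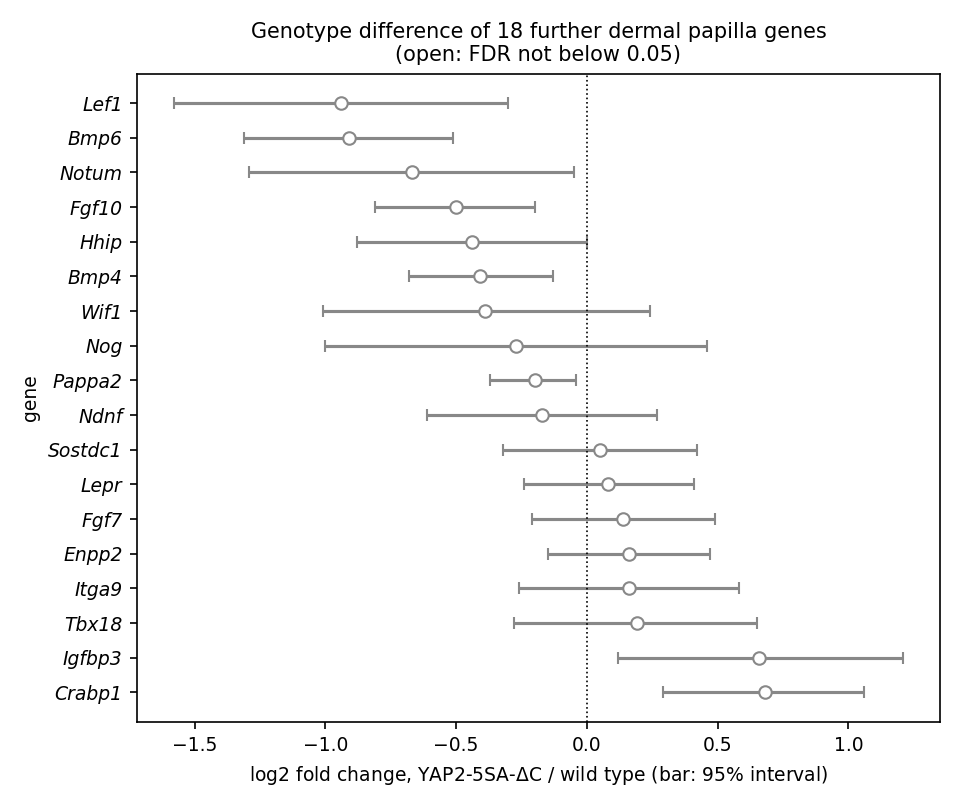
Log2 fold change of YAP2-5SA-∆C over wild type for the 18 further dermal papilla genes that were tested, with 95% intervals as bars and all points open because none had an FDR below 0.05. *Bmp6* at -0.91 and *Crabp1* at 0.68 lie near opposite ends.

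Around the R-spondins, 12 of 12 listed receptors, relatives and Wnt feedback genes were tested and 0 passed the FDR threshold in edgeR, where 1 higher and 4 lower ones had an unadjusted p-value under 0.05, a level that 26.3% of all tested genes reached. Their median log2FC was -0.23. The differences in the other 2 R-spondins did not pass the test. *Rspo1* had 7.28 ± 1.61 and 7.78 ± 1.13 CPM (SD, n = 3 each) in wild type and transgenic skin, and *Rspo4* had 2.11 ± 0.308 and 1.73 ± 0.0853 CPM. *Nkd1* and *Nkd2*, which encode naked cuticle antagonists of Wnt signalling, were lower in each YAP2-5SA-∆C library, with log2FC values of -0.60 (SE 0.14, edgeR FDR 0.0640) and -0.88 (SE 0.27, FDR 0.106). *Rnf43*, whose product is cleared from the cell surface by R-spondins, had a log2FC of -0.27 (SE 0.09, edgeR FDR 0.113). The feedback gene *Axin2* was nearly level, with a log2FC of -0.04 (SE 0.07, edgeR FDR 0.748). *Lgr6* had a log2FC of 0.60 (SE 0.29, edgeR FDR 0.236). Of the 12 genes, 9 had a fold below 1 and 3 a fold above 1.

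Around *Corin*, 7 of 10 listed genes of the natriuretic peptide and agouti pathways were tested and 0 passed in edgeR, where 1 higher and 2 lower ones had an unadjusted p-value under 0.05 (26.3% of all tested genes), and the median log2FC was -0.04. The known substrate gene *Nppa* had 1 count in 1 wild type library and none in the other 5, and the agouti gene *a* had 5 to 17 counts and was not tested. *Nppc*, which encodes C-type natriuretic peptide, had 4.62, 7.17 and 4.95 CPM in wild type against 1.61, 0.647 and 2.62 CPM in YAP2-5SA-∆C skin. Its log2FC was -1.79 ± 0.43 (SE; edgeR FDR 0.0657). The genotypes did not overlap, and replicate 2 was again the lowest. *Atrn*, which encodes the agouti co-receptor attractin, had a log2FC of -0.21 (SE 0.05, edgeR FDR 0.0651), and *Furin*, a convertase of many secreted precursors, had 0.32 (SE 0.09, FDR 0.0936).

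Around *Vcan*, 14 of 15 genes for hyaluronan synthesis, matrix partners and versican-cleaving proteases were tested and 0 passed in edgeR, where 7 higher and 1 lower one had an unadjusted p-value under 0.05, as against 26.3% of all tested genes. The median log2FC was 0.20. A member of this list, *Fbln1*, is also a fibroblast marker of the list above. The proteases *Adamts4* and *Adamts20* differed in opposite directions. *Adamts4* had 5.13 ± 1.21 CPM (SD, n = 3) in wild type against 9.93 ± 1.60 CPM (SD, n = 3) in transgenic skin, and a log2FC of 0.96 (SE 0.21, edgeR FDR 0.0595). *Adamts20*, which is mutated in belted mice with a white band of fur, had 37.2 ± 2.05 and 17.6 ± 5.4 CPM, and a log2FC of -1.08 (SE 0.22, edgeR FDR 0.0542). *Has3*, a hyaluronan synthase, had a log2FC of 0.51 (SE 0.15, edgeR FDR 0.0887).

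Around *Alpl*, 6 of 10 genes of phosphate handling and mineralization were tested, and 1 of them fell, with 1 higher and 3 lower ones, this gene included, at an unadjusted p-value under 0.05. Over all tested genes, 0.464% were called lower and 26.3% had such a p-value. The median log2FC of the list was -0.13. *Nt5e*, which encodes the ecto-nucleotidase CD73, had 48.5, 51.9 and 51.2 CPM in wild type against 39.0, 35.9 and 39.3 CPM in YAP2-5SA-∆C skin. Its log2FC was -0.41 ± 0.06 (SE; edgeR FDR 0.0414). This call was lost, as were all others, on leaving out replicate 2 or 3 of the wild type mice or replicate 3 of the YAP2-5SA-∆C mice, and with a replicate block. Of the other alkaline phosphatase genes listed, *Alpi* and *Alppl2* had at most 1 count in any library, and *Akp3* was not among the genes counted. Among 9 relatives of the transcription factors and of prominin, 7 were tested and 0 passed in edgeR, where 1 higher and 2 lower ones had an unadjusted p-value under 0.05, against 26.3% over all tested genes, and the median log2FC was 0.22. *Alx1* had 2 to 10 counts per library and was not tested. *Sox7* was higher in each YAP2-5SA-∆C library (log2 fold change 0.45, SE 0.10, edgeR FDR 0.0634), and *Sox17*, with 2.09 ± 0.672 and 2.57 ± 0.399 CPM (SD, n = 3 each), overlapped. *Prom2* had 96.3 ± 4.30 and 98.6 ± 10.1 CPM. *Msx1* and *Msx2*, homeobox genes of the hair follicle, were lower in each YAP2-5SA-∆C library, with log2FC values of -0.96 (SE 0.35, edgeR FDR 0.145) and -1.13 (SE 0.31, FDR 0.0811).

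Antisense genes overlap the exons of 3 members in the annotation, by 147 bases in *Corin*, 404 bases in *Rspo3* and 424 bases in *Prom1*. The labels name a stranded kit, but the strand setting of the counting is not given in the sources used here, so reads from both strands of these stretches may not have been told apart. In *Trps1*, 25 exon bases are shared with the microRNA gene *Mir1907* on the same strand. The core motif of the TEAD factors, GGAATG, was searched on both strands of RefSeq promoter windows on GRCm38.p6, from 250 bases before to 50 bases after a transcription start. The 6 windows that were given for *Alpl*, *Corin*, *Prom1* and *Vcan* held 0 matches, and 14.7% of all 32851 windows held at least 1. The other 5 members had no window in that set.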

How the data were processed

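RNA-Seq counts of 6 libraries, 3 wild type and 3 YAP2-5SA-∆C, were analysed. The deposited counts are whole reads per Ensembl gene, which the authors made by mapping paired-end reads to GRCm38 with Tophat2 (2.0.12 in the submitters' processing notes, another version in the study's methods) and Bowtie2 (2.1.0) and counting uniquely mapped reads with HTSeq-count. Each column was assigned to its sample by name. The labels name a total RNA kit and the methods mRNA libraries, and mitochondrial rRNA took 17.2% to 20.4% of the counts. Replicates were separate mice.

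Genes reaching 1 CPM in 3 or more libraries were scaled with TMM and tested with glmQLFit and glmQLFTest of edgeR 4.0.16 in R 4.3.3, with genotype as the only term and Benjamini-Hochberg adjustment over all 15102 genes. Standard errors were the log2 fold change divided by the square root of F. The alternatives used RLE, upper-quartile or fibroblast-marker scaling, other filters, edgeR's likelihood-ratio test, voom of limma 3.58.1, DESeq2 1.42.0, a replicate block, and 1 library left out. The tests were tried on simulated counts. The members and gene lists were chosen with earlier results of these data known. In each further list, genes past the FDR threshold were named, or else the 3 of lowest p-value, with close family relatives of the members and, for the 3 members of largest SD, the 3 genes of most similar profile. Some genes that this rule names are not reported here. Gene names came from GENCODE release M21, in which 558 identifiers are absent.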

Additional observations from a re-analysis of the deposited data

How the results depend on the processing

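Of 144 alternative values for the log2 fold changes of the 9 members, 137 kept the direction. *Corin*, *Rspo2*, *Trps1* and *Vcan* were below 0 and *Rspo3* and *Sox18* above 0 in all 16 alternatives. The 7 reversed values belong to *Alpl* (-0.11 with scaling to fibroblast markers and -0.14 without YAP2-5SA-∆C replicate 3), *Alx4* (-0.07 with that scaling and -0.05 without wild type replicate 2) and *Prom1* (-0.12 with that scaling, -0.05 without wild type replicate 2 and -0.22 without YAP2-5SA-∆C replicate 2). Fibroblast scaling shifted the median of all genes to -0.22, and all 3 stayed above that. With each library left out, values lay between -0.14 and 0.22 for *Alpl*, -0.05 and 0.34 for *Alx4*, and -0.22 and 0.32 for *Prom1*. The number of members called was 1 in the main analysis, 3 with the likelihood-ratio test of edgeR (*Corin*, *Rspo2*, *Trps1*), 2 with DESeq2 (*Corin*, *Trps1*), and 0 with fibroblast scaling, where 4 members and 5223 of all 15102 genes had an unadjusted p-value under 0.05 in edgeR. With each library left out it lay between 0 and 2, and in edgeR 2 to 4 members had an unadjusted p-value under 0.05. Over all genes, 288 were called in the main analysis, 17 with fibroblast scaling, 497 with no low-count filter, 1568 with the likelihood-ratio test, 1583 with DESeq2, and between 0 and 817 with each library left out. No gene was called without replicate 2 of wild type (2726 genes with an unadjusted p under 0.05 in edgeR), replicate 3 of wild type (2844) or replicate 3 of YAP2-5SA-∆C (3691), against 142 on leaving out wild type replicate 1 and 83 or 817 on leaving out YAP2-5SA-∆C replicate 1 or 2. The causes were not tested. With a replicate block, edgeR called 0 genes and 0 members, with an unadjusted p under 0.05 in 2949 genes and 3 members. Deviations of same-numbered libraries from their genotype means correlated at -0.33, -0.23 and -0.05 across genes, and those of different-numbered ones at -0.07 to 0.27. Deviations from a mean of 3 libraries depend on one another, so these values cannot settle if the shared numbers pair the mice. The block left *Corin*, *Rspo2* and *Trps1* at -0.99, -0.97 and -0.65. With 3 mice per genotype and 14 to 43 counts per library for *Rspo2* and *Prom1*, the depth limits the precision of both genes.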
